A study of Homo sapiens with 6 samples.

Results

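The genes described here are 10 genes of vessel growth signalling that a cell can express: the growth factors VEGFA, VEGFB, VEGFC and PGF, the co-receptors NRP1 and NRP2, the matrix proteins THBS1, THBS2 and THBS3, and the secreted protein ANGPTL4. They were chosen by symbol, and all 10 were found among the 21173 genes of the count table. RNA was sequenced from TPC1, a human cell line of papillary thyroid carcinoma, in 3 libraries of cells that overexpress the CP2 family transcription factor TFCP2L1 and in 3 libraries of cells with a vector, whose genotype the labels give as WT. The comparison asks how expression differs in these cancer cells when TFCP2L1 is overexpressed. The construct, the culture conditions and whether the cells were a clone or a pool are not given in the sources used here.

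VEGF family growth factors are secreted by many tumour cells and bind receptor tyrosine kinases on blood and lymphatic endothelial cells. Neuropilins lack a kinase of their own and present VEGF ligands to those receptors, and they also bind class 3 semaphorins together with plexins. Thrombospondins are multimeric glycoproteins of the extracellular matrix, and THBS1 is known as an inhibitor of vessel growth and an activator of latent TGF-beta. ANGPTL4, which hypoxia and fatty acid sensing receptors induce in many cells, inhibits lipoprotein lipase and takes part in vessel biology.

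Libraries held 38213520 to 38987434 reads in TFCP2L1 cells and 37928516 to 38249193 reads in vector cells. TFCP2L1 itself had 12333 to 13885 reads in the libraries of its own group and 0 to 1 read in vector libraries, so the libraries matched their labels. Of the thyroid and epithelial markers, PAX8 was at 119 ± 11.2 FPKM in TFCP2L1 cells and 133 ± 5.36 FPKM in vector cells (SD, n = 3 each) and KRT18 at 98.2 to 111 and 97.9 to 117 FPKM in their libraries, whereas KRT19 and EPCAM had at most 8 reads in a TFCP2L1 library and 20 in a vector library. FPKM are reads scaled to gene length and library total. Endothelial markers were low: TIE1 and ERG were the most abundant, the summed level of the list was 0.796 to 1.26 FPKM in TFCP2L1 cells and 1.18 to 1.64 FPKM in vector cells, and VWF had 2 reads in TFCP2L1 cells and 6 in vector cells. The fibroblast list, led by COL1A1 and PDGFRB, summed to 1.43 to 1.70 FPKM and 1.81 to 2.19 FPKM in TFCP2L1 and vector cells, with COL3A1 at 0 and 3 reads. Among leukocyte markers CD68 rose to 62.8 ± 8.09 FPKM in TFCP2L1 cells, against 40.0 ± 3.32 FPKM in vector cells (log2 fold change 0.63 ± 0.10, edgeR adjusted p = 0.000423). CD68 made up most of the summed level of this list, 57.0 to 72.2 FPKM in TFCP2L1 cells and 37.5 to 44.1 FPKM in vector cells. CSF1R was at 0.249 and 0.300 FPKM in TFCP2L1 and vector cells, and the pan-leukocyte marker PTPRC had 3 and 8 reads. Nothing in the labels states that the replicates came from different cultures, so the p-values reflect spread between libraries that may be technical only.

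By edgeR's quasi-likelihood test, with p-values adjusted over all 14431 tested genes by Benjamini-Hochberg, 3 of the 10 genes rose in TFCP2L1 cells (THBS1, NRP1 and PGF) and 4 fell (THBS3, VEGFC, VEGFA and NRP2). VEGFB and ANGPTL4 were not called, and THBS2 had too few reads to be tested. Over all tested genes 4.63% were called higher and 6.94% lower, 11.6% in either direction. The 9 tested genes had a median log2 fold change of -0.15, against 0.0026 over all tested genes, and their fold changes pointed in both directions within each family. Only THBS1 differed by close to a log2 unit (fold 1.98), and the other called differences were between 1.18-fold and 1.57-fold in size. In a bulk library, fewer cells that express a gene and less of its RNA per cell cannot be told apart.

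**Figure D1:**
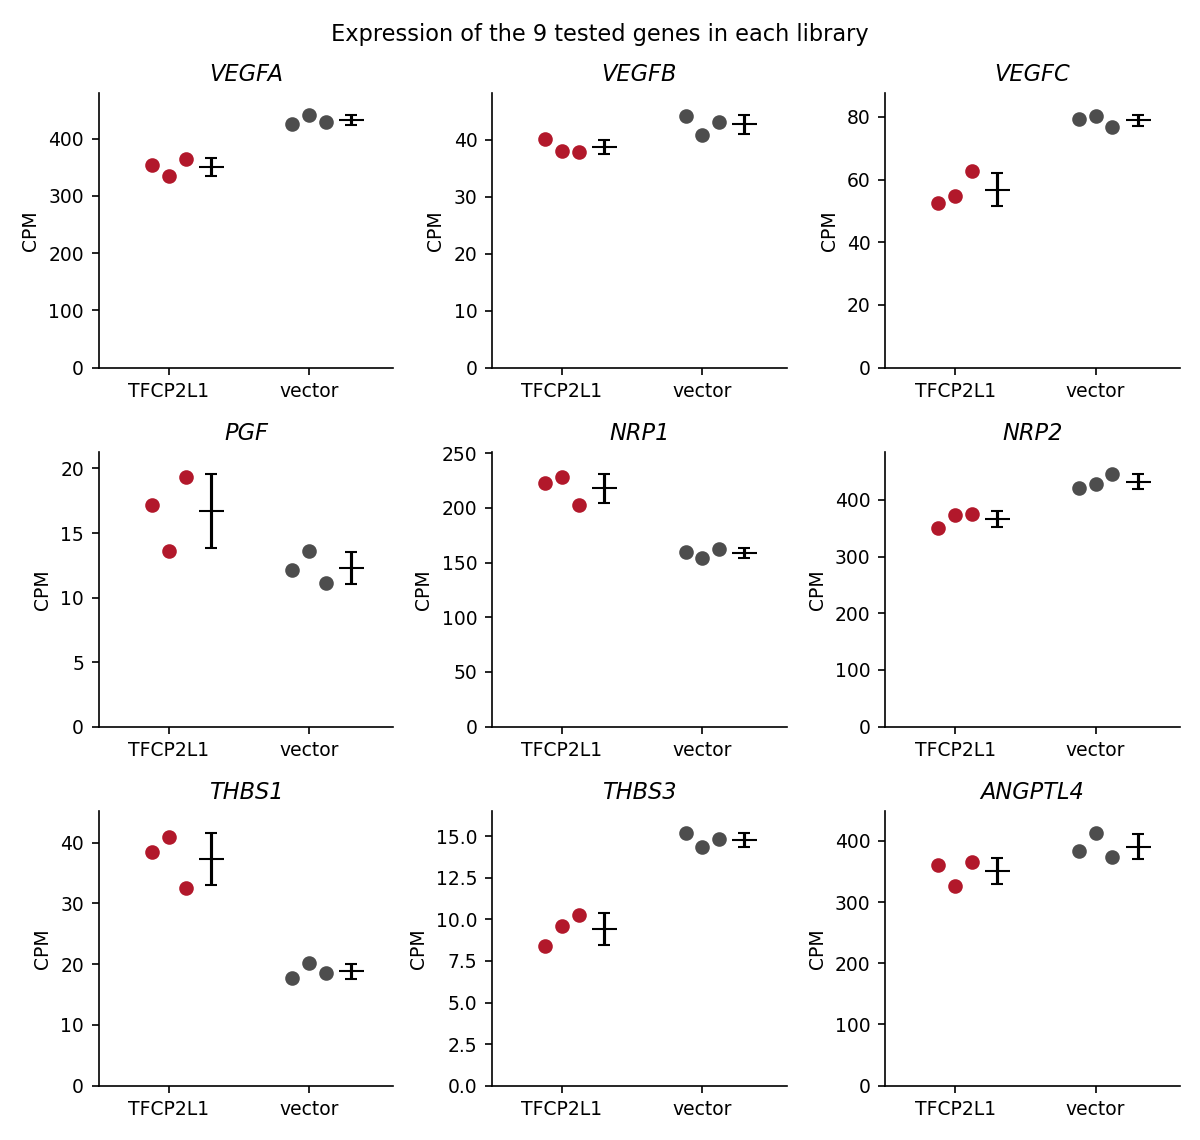
Expression of the 9 tested genes in CPM (counts scaled to library size, y axis from 0) in the 3 TFCP2L1 libraries (red) and the 3 vector libraries (grey); points are libraries and the bar beside them is the mean with its SD. For PGF the lowest TFCP2L1 library and the highest vector library both sit at 13.6 CPM, while THBS1, NRP1, VEGFC and THBS3 show a clear gap between the groups.

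Levels were compared between genes per length, in the deposited FPKM. ANGPTL4 was the most abundant of the 10 in both groups, at 181 ± 11.7 FPKM in TFCP2L1 cells and 198 ± 9.43 FPKM in vector cells (SD, n = 3 each), followed on this scale by VEGFA at 93.3 ± 4.24 and 113 ± 1.65 FPKM. In TFCP2L1 cells NRP1 (36.1 ± 2.37 FPKM), VEGFC (25.3 ± 2.20), NRP2 (22.5 ± 0.689) and VEGFB (21.7 ± 0.880) came next, and the libraries of NRP2 and VEGFB overlapped. In vector cells this middle range was ordered VEGFC (34.6 ± 0.699 FPKM), NRP2 (26.0 ± 0.857), NRP1 (25.9 ± 0.800) and VEGFB (23.5 ± 1.03), with the libraries of NRP2 and NRP1 overlapping. PGF, THBS1, THBS3 and THBS2 were lowest in both groups, and the order of THBS1 and THBS3 differed between them. The authors divided by a single length per gene. That length was 3796 bases for VEGFA, 1911 for PGF, 6086 for NRP1 and 16433 for NRP2, where the union of annotated exons in GENCODE v29 has 14431, 5962, 11522 and 13896 bases. The fold change of a single gene does not depend on the length, but the order of genes does, as do their ratios and sums. With the exon unions as lengths, a choice made after seeing the data, ANGPTL4 stayed first, PGF and the thrombospondins stayed lowest in both groups, and the genes between were rearranged. VEGFA was then at 24.5 ± 1.12 in TFCP2L1 cells and 29.7 ± 0.433 in vector cells on the FPKM scale (SD, n = 3 each), below ANGPTL4, NRP2 and VEGFB in TFCP2L1 cells and below ANGPTL4, VEGFC and NRP2 in vector cells, with libraries that overlapped those of VEGFB in TFCP2L1 cells and of NRP2 in vector cells. NRP1, at 19.1 ± 1.25 and 13.7 ± 0.423, was below NRP2, at 26.6 ± 0.815 and 30.8 ± 1.01.

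Among the ligands, the gene of the main endothelial growth factor and that of a lymphatic one fell, while a lowly expressed member of the family rose. VEGFA (ENSG00000112715.21; GRCh38 chromosome 6, 43770184 to 43786487, plus strand), the central driver of blood vessel growth, was at 354, 334 and 365 CPM in TFCP2L1 cells and at 426, 442 and 429 CPM in vector cells. CPM are counts scaled to the library size after TMM normalization. All 3 TFCP2L1 libraries lay below all 3 vector libraries, with a log2 fold change of -0.30 ± 0.07 (SE; edgeR adjusted p = 0.0112). The call was lost whichever vector library was left out, with an edgeR adjusted p of 0.0541, 0.0564 and 0.0613 without vector replicate 1, 2 and 3. The log2 fold change changed little in these fits, at -0.31, -0.29 and -0.31.

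VEGFC (ENSG00000150630.3; chromosome 4, 176683538 to 176792727, minus strand), the growth factor of lymphatic vessels, was at 52.6, 54.8 and 62.7 CPM in TFCP2L1 cells and at 79.4, 80.3 and 76.7 CPM in vector cells. It fell by 0.48 on the log2 scale (SE 0.08, edgeR adjusted p = 0.00117), the largest fall among the ligands, and was called whichever of the 6 libraries was left out. Its promoter sequence, which RefSeq (GRCh38.p14) places at chr4:176792873-176793172 on the minus strand, is shown because this was the ligand with the most stable difference. It runs from 250 bases before to 50 bases after the start that RefSeq gives, which lies 195 bases upstream of the GENCODE v29 start of the gene, and the capitals mark the hypoxia response core, which is ACGTG or GCGTG on either strand.
VEGFC promoter: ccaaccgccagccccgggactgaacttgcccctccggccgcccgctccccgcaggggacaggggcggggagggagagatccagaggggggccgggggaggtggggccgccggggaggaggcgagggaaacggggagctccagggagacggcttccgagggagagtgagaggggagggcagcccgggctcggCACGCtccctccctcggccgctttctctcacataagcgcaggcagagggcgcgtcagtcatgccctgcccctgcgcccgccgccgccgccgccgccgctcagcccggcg
Its only match to that core spans positions -59 to -55, counted from the RefSeq start. Of 35116 promoters of this length in the RefSeq table, 48.4% hold such a core. In the same table, 8 of the 10 genes had a promoter, some with more than 1 start, and 6 of these 8 held the core.

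PGF (ENSG00000119630.13; chromosome 14, 74941834 to 74955784, minus strand), placental growth factor, a ligand of the receptor FLT1, was at 17.2, 13.6 and 19.3 CPM in TFCP2L1 cells and at 12.1, 13.6 and 11.1 CPM in vector cells. TFCP2L1 replicate 2 and vector replicate 2 were level, and the other TFCP2L1 libraries were above every vector library. PGF rose by 0.44 ± 0.14 on the log2 scale (SE; edgeR adjusted p = 0.0471). The call was lost in 10 of 16 other settings, among them leaving out TFCP2L1 replicate 1 (0.137) or 3 (0.131) or vector replicate 1 (0.144) or 3 (0.203), limma-voom (0.0592), upper-quartile scaling (0.0537), a stricter filter (0.0507) and limma on log2 FPKM with a pseudocount of 1 (0.0796) or 0.1 (0.0742).

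VEGFB (ENSG00000173511.9; chromosome 11, 64234538 to 64238793, plus strand), a ligand of FLT1 linked to fatty acid handling in tissues, was at 40.2, 38.1 and 37.9 CPM in TFCP2L1 cells and at 44.2, 40.9 and 43.2 CPM in vector cells. The groups did not overlap, but the log2 fold change of -0.14 (95% interval -0.32 to 0.034) was not called (edgeR adjusted p = 0.312). Groups without overlap were seen for 30% of all tested genes and for all 9 tested genes here, for PGF by less than the values above can show. Summed over the 4 ligands, the level was 150.5, 141 and 156 FPKM in TFCP2L1 cells and 177, 179 and 176 FPKM in vector cells. VEGFA made up 62.6% ± 0.533 of this sum in TFCP2L1 cells and 63.7% ± 0.585 in vector cells (SD, n = 3 each), VEGFC 17.0% ± 1.10 and 19.5% ± 0.256, and PGF 5.90% ± 0.744 and 3.59% ± 0.315. With exon unions as lengths VEGFA made up 32.2% ± 0.422 in TFCP2L1 cells and 32.5% ± 0.664 in vector cells, VEGFC 31.0% ± 1.94 and 35.3% ± 0.550, and the sum was again lower in every TFCP2L1 library, at 73.1 to 79.2 against 90.7 to 92.3 in vector libraries.

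**Figure D2:**
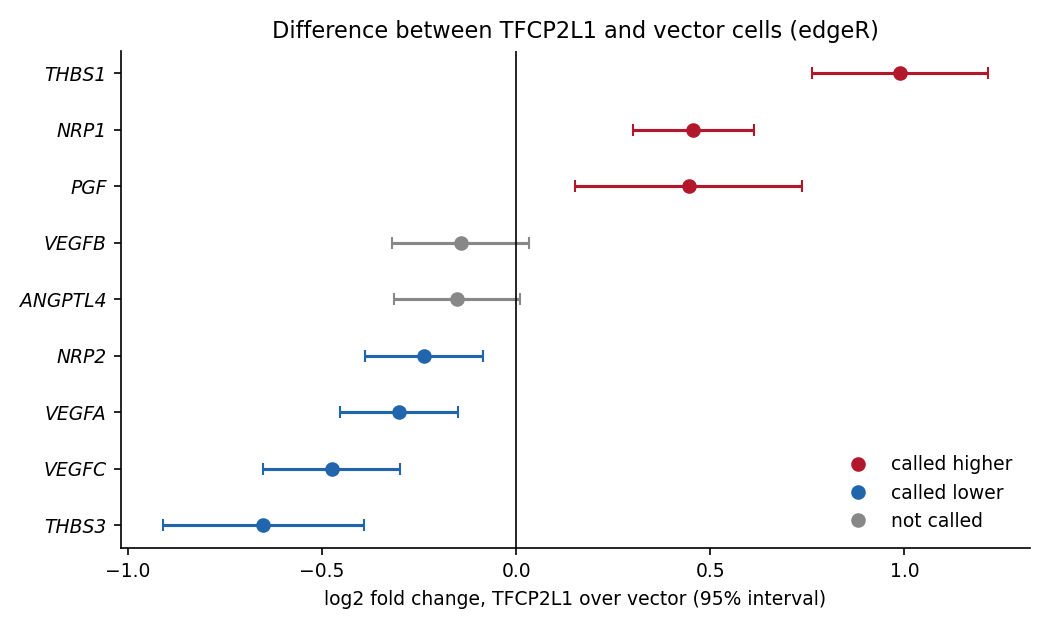
Log2 fold change of TFCP2L1 over vector cells (x axis) for the 9 tested genes, from edgeR, with the 95% interval; red is called higher, blue called lower and grey not called. THBS1 stands alone at 0.99, NRP1 and PGF follow at 0.46 and 0.44, and THBS3 is the lowest at -0.65.

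The neuropilin genes moved in opposite directions. NRP1 (ENSG00000099250.17; chromosome 10, 33177492 to 33336262, minus strand), the co-receptor of VEGFA on blood endothelium and of SEMA3A, was at 222, 229 and 203 CPM in TFCP2L1 cells and at 159, 154 and 163 CPM in vector cells. It rose by 0.46 ± 0.07 on the log2 scale (SE; edgeR adjusted p = 0.000574) and was called in all 16 other settings. NRP2 (ENSG00000118257.16; chromosome 2, 205681990 to 205798133, plus strand), the co-receptor of VEGFC and of SEMA3F, was at 350.0, 373 and 376 CPM in TFCP2L1 cells and at 421, 427 and 446 CPM in vector cells. It fell by 0.24 on the log2 scale (SE 0.07, edgeR adjusted p = 0.0429). The NRP2 call was lost without TFCP2L1 replicate 1 (0.141) or vector replicate 1 (0.121), 2 (0.110) or 3 (0.206), and also with library totals (0.0674), with no filter on low counts (0.0527) and with limma on log2 FPKM with a pseudocount of 1 (0.0815) or 0.1 (0.0831).

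A ratio of levels within a library does not depend on how libraries are scaled, and another gene length multiplies it by the same factor in every library. NRP1 over NRP2 in FPKM was 1.72, 1.65 and 1.46 in TFCP2L1 libraries and 1.02, 0.976 and 0.984 in vector libraries. The ratio was higher in every TFCP2L1 library than in any vector library, but which neuropilin was the more abundant depended on the length: with exon unions the ratio was 0.767, 0.739 and 0.651 in TFCP2L1 libraries and 0.457, 0.436 and 0.440 in vector libraries. The counts are per gene, so soluble and membrane forms of the neuropilins, like the splice forms of VEGFA, were not separated.

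The thrombospondin genes differed most. THBS1 (ENSG00000137801.10; chromosome 15, 39581079 to 39599466, plus strand) was at 38.5, 40.9 and 32.5 CPM in TFCP2L1 cells and at 17.7, 20.2 and 18.5 CPM in vector cells. The lowest TFCP2L1 library was above the highest vector library, and the log2 fold change was 0.99 ± 0.11 (SE; edgeR adjusted p = 1.12e-05). THBS3 (ENSG00000169231.13; chromosome 1, 155195588 to 155209051, minus strand), a pentameric thrombospondin found in cartilage and bone, was at 8.38, 9.62 and 10.3 CPM in TFCP2L1 cells and at 15.2, 14.3 and 14.8 CPM in vector cells. It fell by 0.65 on the log2 scale (SE 0.12, edgeR adjusted p = 0.00204). Both were called in all 16 other settings, with log2 fold changes of 0.78 to 1.08 for THBS1 and -0.72 to -0.43 for THBS3, whose smallest value was that on log2 FPKM with a pseudocount of 1, which shrinks low genes.

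THBS1 over THBS3 in FPKM was 3.12, 2.89 and 2.15 in TFCP2L1 libraries and 0.791, 0.957 and 0.845 in vector libraries. With exon unions it was 2.02 ± 0.376 in TFCP2L1 cells and 0.643 ± 0.0631 in vector cells (SD, n = 3 each), so with either length THBS1 was the more abundant in each TFCP2L1 library and THBS3 in each vector library. Set against the main growth factor, THBS1 over VEGFA was 0.0521 ± 0.00822 in TFCP2L1 cells and 0.0212 ± 0.00104 in vector cells (SD, n = 3 each), and with exon unions 0.168 ± 0.0266 and 0.0685 ± 0.00337, so THBS1 was below VEGFA per length in both groups. PGF over VEGFA was 0.0942 ± 0.0123 and 0.0564 ± 0.00486 in TFCP2L1 and vector cells.

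**Figure D3:**
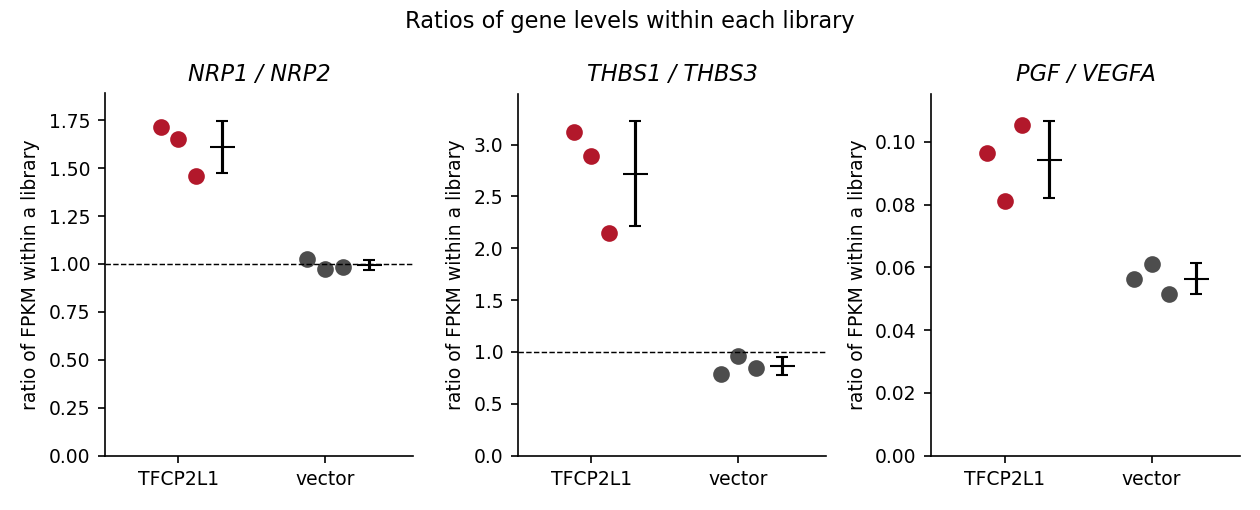
Ratio of the FPKM of 2 genes within each library (y axis from 0) for the 3 TFCP2L1 libraries (red) and the 3 vector libraries (grey), with mean and SD beside the points; the dashed line marks equal FPKM, with the authors' gene lengths. NRP1 over NRP2 and THBS1 over THBS3 lie near or below 1 in vector cells and at 1.46 or more in TFCP2L1 cells; with exon unions as lengths NRP1 over NRP2 is below 1 in every library.

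THBS2 (ENSG00000186340.15; chromosome 6, 169215780 to 169254044, minus strand), a relative of THBS1 known in fibroblasts and as a vessel inhibitor, had 4, 1 and 4 reads in TFCP2L1 libraries and 0 in each vector library. Set against a floor of 3 reads over the vector group, these reads are 2.97-fold higher, a value that depends on the chosen floor. THBS2 did not pass the filter on low counts, and with no filter its edgeR adjusted p was 0.183. Reads of opposite strands may be mixed where genes overlap, since the sources used here do not give strandedness. Exons of other genes cover 25.4% of the annotated exon bases of THBS3, mostly those of an antisense gene named AC234582.1 in GENCODE v29, whose gene ID is that of THBS3-AS1. THBS3-AS1 had 31, 46 and 50 reads in TFCP2L1 libraries and 25, 19 and 24 in vector libraries (edgeR adjusted p = 0.202). The protein-coding gene MTX1, on the opposite strand, covers 3.16% of the exon bases of THBS3. MTX1 had 3421 reads in TFCP2L1 cells and 3213 in vector cells, against 1097 and 1675 for THBS3. It was not called (log2 fold change 0.05, edgeR adjusted p = 0.888). For the other 9 genes the covered share was 7.58% or less.

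The promoters of the 3 thrombospondin genes are shown because THBS1 rose, THBS3 fell and THBS2, which was not tested, holds a match to the site type of the CP2 family. Capitals mark the hypoxia response core, the TATA core TATAAA, and pairs of CP2 half-sites, meaning CCAG or CCGG, then any 6 bases, then CCAG or CCGG, all searched on both strands. The THBS1 window is chr15:39580829-39581128 on the plus strand, the THBS2 window chr6:169253797-169254096 on the minus strand, and the THBS3 window, the more upstream of 2 starts, chr1:155209129-155209428 on the minus strand (RefSeq, GRCh38.p14). The RefSeq start of THBS1 is that of GENCODE v29, that of THBS2 lies 198 bases downstream of the GENCODE start, and that of this THBS3 window 127 bases upstream.
THBS1 promoter: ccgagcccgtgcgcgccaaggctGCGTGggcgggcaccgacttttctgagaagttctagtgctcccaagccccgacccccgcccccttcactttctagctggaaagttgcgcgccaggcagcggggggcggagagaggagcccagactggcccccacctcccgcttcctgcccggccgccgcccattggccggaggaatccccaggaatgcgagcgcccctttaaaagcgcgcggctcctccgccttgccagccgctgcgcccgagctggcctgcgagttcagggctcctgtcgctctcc
THBS2 promoter: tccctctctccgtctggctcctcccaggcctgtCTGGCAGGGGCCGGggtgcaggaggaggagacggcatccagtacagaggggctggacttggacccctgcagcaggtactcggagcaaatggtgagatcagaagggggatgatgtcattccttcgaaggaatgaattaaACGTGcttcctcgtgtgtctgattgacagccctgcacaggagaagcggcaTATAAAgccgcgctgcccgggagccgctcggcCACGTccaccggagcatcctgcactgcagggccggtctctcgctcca
THBS3 promoter: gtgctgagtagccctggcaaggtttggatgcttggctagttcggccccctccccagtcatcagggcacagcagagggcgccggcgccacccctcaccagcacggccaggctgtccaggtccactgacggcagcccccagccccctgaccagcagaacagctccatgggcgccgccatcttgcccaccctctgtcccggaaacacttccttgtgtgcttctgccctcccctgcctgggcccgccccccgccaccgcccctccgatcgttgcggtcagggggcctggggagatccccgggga
The THBS1 window held 1 hypoxia response core, at -227 to -223, and no match to the other motifs. THBS2 held the only pair of CP2 half-sites among the 8 genes, at -217 to -204 on the opposite strand, with hypoxia response cores at -79 to -75 and 4 to 8 and a TATA core at -29 to -24, none of which overlapped another. The THBS3 windows held none of these motifs. Pairs of CP2 half-sites occur in 12.1% and the TATA core in 11.5% of the 35116 RefSeq promoters, and the matches say nothing of binding.

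ANGPTL4 (ENSG00000167772.11; chromosome 19, 8363289 to 8374373, plus strand) was at 361, 326 and 366 CPM in TFCP2L1 cells and at 383, 414 and 374 CPM in vector cells. Its log2 fold change of -0.15 (95% interval -0.32 to 0.0094) was not called (edgeR adjusted p = 0.229) in the reported test or in any of 16 other settings. The list of PPAR factors and targets holds the fatty acid sensing receptors, their partners RXRA and RXRB, and genes that these receptors induce. Of its 13 tested genes edgeR called 0, with 4 at an unadjusted p under 0.05, and DESeq2 called 1. Their median log2 fold change was -0.014. The one with the smallest p was CPT1A, an enzyme for the entry of fatty acids into mitochondria, at 0.33 ± 0.11 (edgeR adjusted p = 0.0560).

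**Figure D4:**
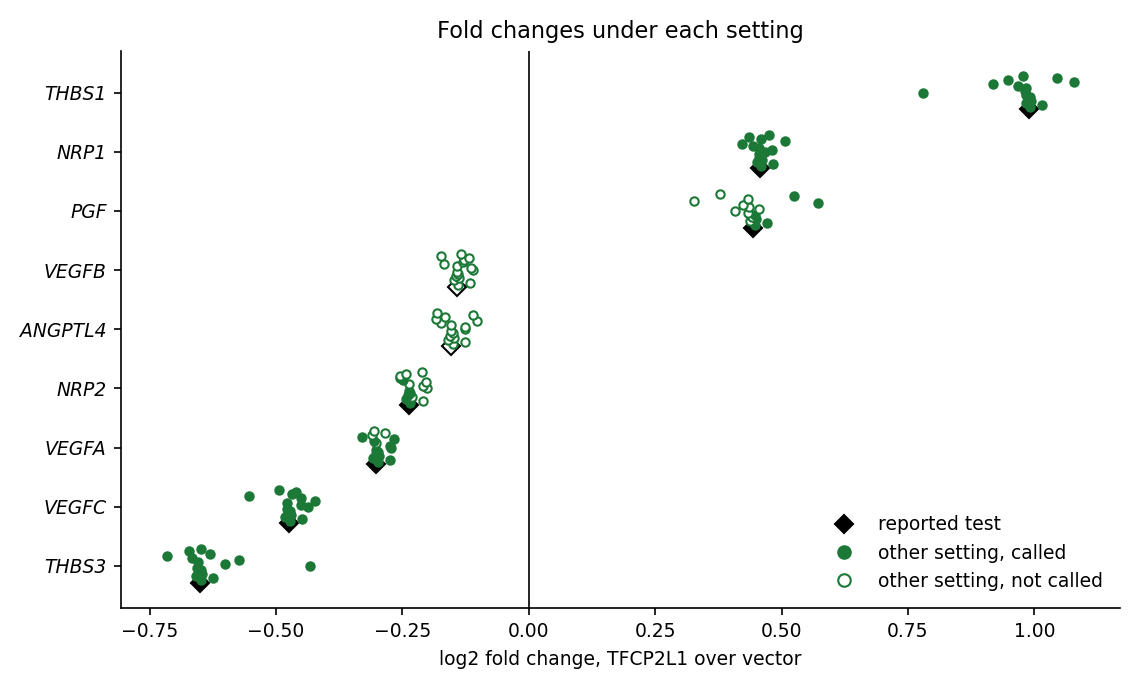
Log2 fold change of TFCP2L1 over vector cells (x axis) for the 9 tested genes under the reported test (diamonds) and 16 other settings (circles), filled where the adjusted p is under 0.05. THBS1, NRP1, VEGFC and THBS3 are filled throughout, VEGFB and ANGPTL4 are open throughout, and PGF, NRP2 and VEGFA are mixed, with every point on the same side of 0 for each gene.

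The 2 VEGF receptor genes analysed, KDR and FLT4, were hardly expressed. KDR, the main receptor of VEGFA on endothelium, had 7 reads in TFCP2L1 cells and 24 in vector cells, FLT4, the receptor of VEGFC, had 3 and 2, and the further ligand gene VEGFD had 3 and 6. None of the 3 passed the filter on low counts. FLT1, the receptor of PGF and VEGFB, was not analysed here.

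The lists below can be set against all tested genes. Of these, 4.63% were called higher and 6.94% lower, with a median log2 fold change of 0.0026. Among the other ligands of neuropilins, the class 3 semaphorins, 1 of 5 tested genes fell and 0 rose, with a median log2 fold change of -0.18. That gene was SEMA3C, a secreted guidance factor, the most abundant of them at 25.0 ± 2.96 FPKM in TFCP2L1 cells and 49.7 ± 2.83 FPKM in vector cells (SD, n = 3 each). Its log2 fold change was -1.02 ± 0.09 (SE; edgeR adjusted p = 8.81e-07). Of 9 plexins, the signalling receptors that neuropilins join, 4 fell and 1 rose, with a median of -0.25; without vector replicate 2, or without vector replicate 3, 2 fell. PLXNC1 (-0.64 ± 0.13), PLXNB3 (-0.46 ± 0.10) and PLXNA3 (-0.45 ± 0.11) fell, with edgeR adjusted p of 0.00307, 0.00638 and 0.0134. Named after its value was seen, PLXNA1, a partner of NRP1 for SEMA3A, was the plexin that rose, at 17.9 ± 0.783 FPKM in TFCP2L1 cells and 13.8 ± 0.904 FPKM in vector cells (log2 fold change 0.34 ± 0.08, edgeR adjusted p = 0.00691), with an adjusted p of 0.0665 when vector replicate 1 was left out. The PLXNA3 call was lost without TFCP2L1 replicate 1 (0.0526) or vector replicate 2 (0.0631) or 3 (0.0684), and with limma on log2 FPKM with a pseudocount of 1 (0.0640) or 0.1 (0.0721). The fourth plexin that fell, PLXNB2 (-0.25 ± 0.07, edgeR adjusted p = 0.0366), named after its value was seen, lost its call in 8 of 16 settings, among them without vector replicate 1 (0.120), 2 (0.116) or 3 (0.141).

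Some receptors of thrombospondins fell. Of 10 tested genes in the list of other thrombospondins and thrombospondin receptors, 4 fell and 0 rose, with a median log2 fold change of -0.11. SDC4, a heparan sulfate proteoglycan, was at 245 ± 11.2 FPKM in TFCP2L1 cells and 339 ± 11.9 FPKM in vector cells (-0.50 ± 0.07, edgeR adjusted p = 0.000237). LRP1, the endocytic receptor that clears THBS1, was at 29.1 ± 1.22 and 39.4 ± 1.35 FPKM (-0.47 ± 0.07, edgeR adjusted p = 0.000380), and the integrin gene ITGAV at 21.5 ± 2.58 and 28.7 ± 2.61 FPKM (-0.44 ± 0.09, edgeR adjusted p = 0.00479), a call lost with limma on log2 FPKM with a pseudocount of 1 (0.0512). The fourth, ITGB3, an integrin gene named after its value was seen (-0.32 ± 0.07, edgeR adjusted p = 0.00897), was not called without vector replicate 1 (0.0553) or 3 (0.0812) or with a replicate block (0.0585). CD47, the receptor through which THBS1 is known to block nitric oxide signalling, was at 6.95 ± 1.30 and 7.29 ± 0.886 FPKM and was not called, and CD36 was not analysed here.

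In the oxygen sensing list edgeR called 2 of 7 tested genes lower and 0 higher, with a median log2 fold change of -0.080. DESeq2 called 3 lower, and 3 were lower at an unadjusted edgeR p under 0.05. The 2 that edgeR called were the hypoxia-inducible factor genes HIF1A and EPAS1. HIF1A was at 114 ± 10.02 FPKM in TFCP2L1 cells and 153 ± 6.31 FPKM in vector cells, and EPAS1 at 17.7 ± 1.41 and 24.2 ± 1.08 FPKM (SD, n = 3 each). Their log2 fold changes were -0.45 ± 0.08 and -0.48 ± 0.08 (SE; edgeR adjusted p = 0.00168 and 0.000816). These factors are known chiefly to be controlled through protein stability, which RNA counts do not measure. Of 3 tested angiopoietin system genes edgeR called 0, with 1 at an unadjusted p under 0.05, and DESeq2 called 1. TIE1, an orphan receptor of endothelium, had the smallest p (-0.79 ± 0.25, edgeR adjusted p = 0.0555).

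**Figure D5:**
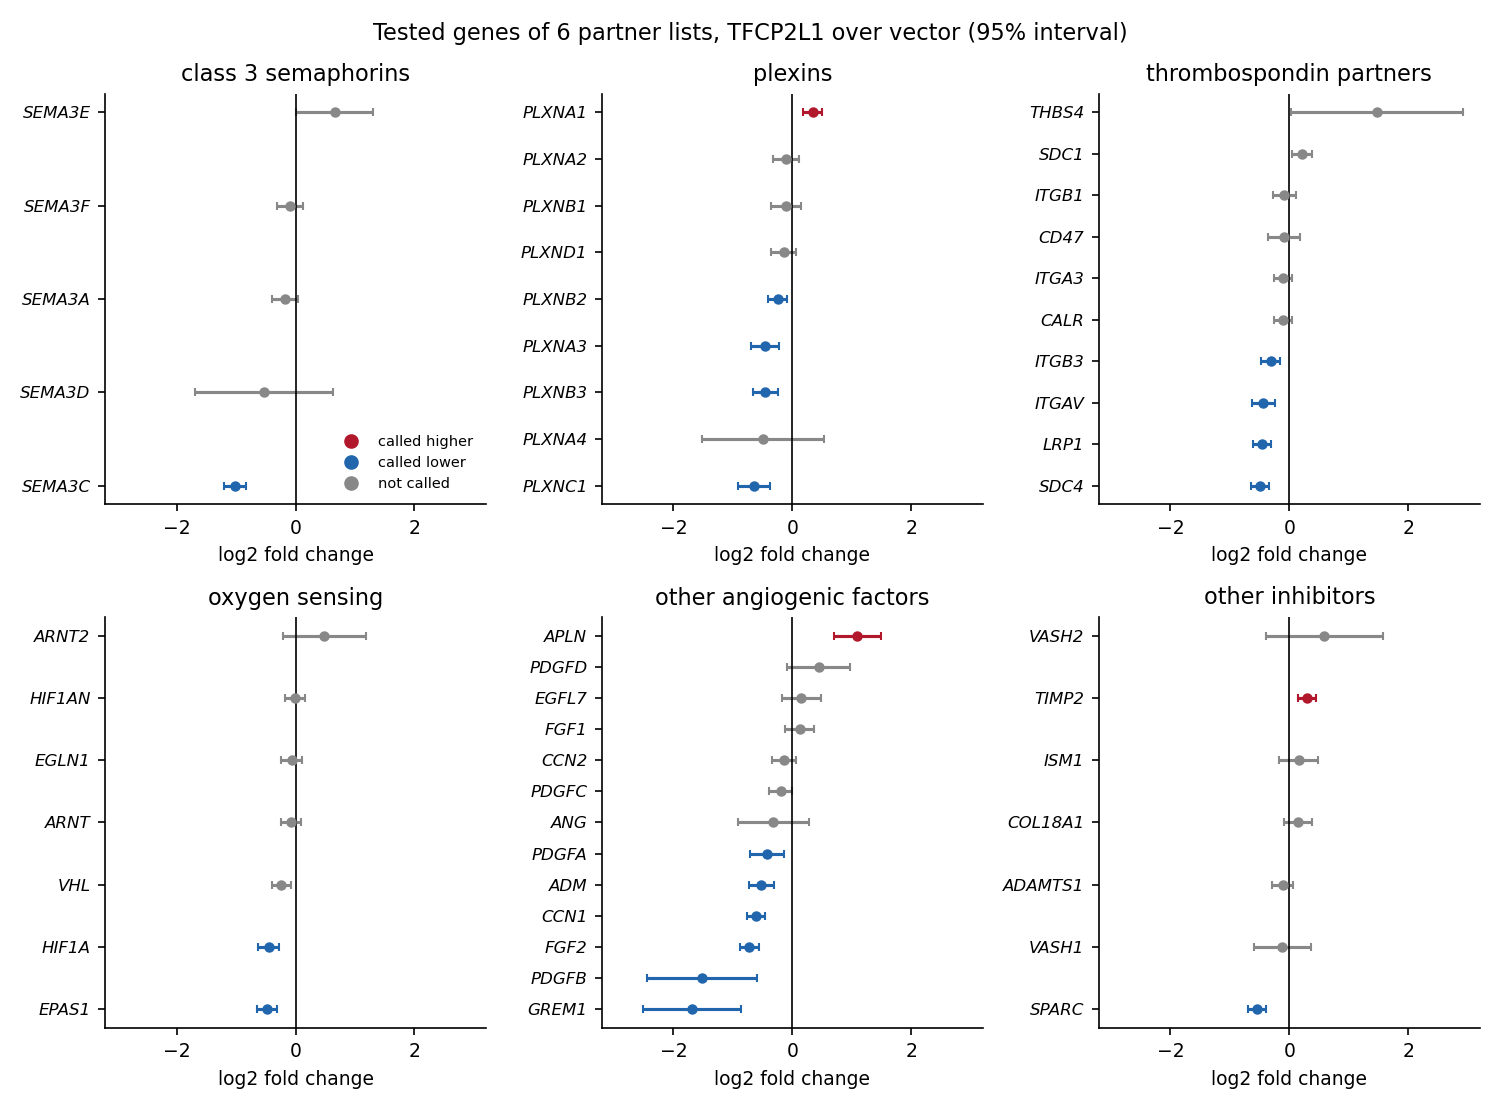
Log2 fold change of TFCP2L1 over vector cells (x axis, with 95% interval) for the tested genes of 6 lists; red is called higher, blue called lower and grey not called. SEMA3C, at -1.02, is the called semaphorin, PLXNA1 is the plexin called higher, and the called angiogenic factors other than APLN lie below 0.

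Other secreted factors of vessel growth also differed. Of 13 tested angiogenic factors 6 fell and 1 rose, with a median log2 fold change of -0.32; without TFCP2L1 replicate 1, vector replicate 1 or vector replicate 3, 4 fell. GREM1, a secreted BMP antagonist, had 61 reads in TFCP2L1 cells and 191 in vector cells (-1.68 ± 0.39, edgeR adjusted p = 0.00911), a call lost with limma on log2 FPKM with a pseudocount of 1 (0.137) or 0.1 (0.0728). PDGFB, a growth factor for pericytes, had 70 and 196 reads (-1.52 ± 0.43, edgeR adjusted p = 0.0321), a call lost without TFCP2L1 replicate 1 (0.0873) or vector replicate 1 (0.122) or 3 (0.0953) and with a replicate block (0.0837). PDGFA (-0.43 ± 0.13, edgeR adjusted p = 0.0468), a related growth factor named after its value was seen, lost its call in 10 of 16 settings, among them all 6 that left out a library (0.0649 to 0.161). APLN, the ligand of the apelin receptor, rose to 3.11 ± 0.841 FPKM in TFCP2L1 cells, against 1.43 ± 0.0233 FPKM in vector cells (1.09 ± 0.19, edgeR adjusted p = 0.000963). Named after its value was seen, FGF2, a growth factor for endothelial cells and fibroblasts, was at 20.7 ± 1.13 FPKM in TFCP2L1 cells and 33.7 ± 1.71 FPKM in vector cells (-0.73 ± 0.07, edgeR adjusted p = 6.15e-06). CCN1 (-0.61 ± 0.07, edgeR adjusted p = 2.68e-05) and ADM (-0.52 ± 0.10, edgeR adjusted p = 0.00249), also named after their values were seen, were the other factors that fell. APLN, FGF2, CCN1 and ADM kept their calls in all 16 other settings.

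Of 7 other tested inhibitors of vessel growth 1 rose and 1 fell, with a median log2 fold change of 0.14. SPARC, a matrix protein that binds growth factors, was at 97.4 ± 2.10 FPKM in TFCP2L1 cells and 139.8 ± 1.98 FPKM in vector cells (-0.55 ± 0.07, edgeR adjusted p = 6.16e-05). TIMP2, an inhibitor of matrix metalloproteases, was at 46.5 ± 1.29 and 37.2 ± 1.42 FPKM (0.30 ± 0.07, edgeR adjusted p = 0.0115), with an adjusted p of 0.0821 when vector replicate 1 was left out.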

How the data were processed

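RNA-seq was analysed from 3 libraries of TPC1 cells overexpressing TFCP2L1 and 3 of cells with a vector. Per the labels' protocols, TRIzol served for RNA extraction and a VAHTS Universal kit for library construction. Per the submitters' processing notes, fastp, HISAT2 and HTSeq were used, without versions, with the build GRCh38.p13. The authors deposited raw read counts per gene. They also deposited FPKM values for the same genes, which equal the counts divided by 1 length per gene and the library total, and are no independent measurement.

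Counts were tested with edgeR 4.0.16 (R 4.3.3) in 1 fit of all 6 libraries: filterByExpr, TMM, robust quasi-likelihood F-test, two-sided, Benjamini-Hochberg over all tested genes, called at an adjusted p under 0.05. Errors of fold changes are the fold change over the square root of F. With 3 against 3 libraries an exact permutation test cannot go below 0.1. The biological coefficient of variation was 10.8%. Alternatives were other scalings and filters, DESeq2 1.42.0, limma 3.58.1, a replicate block and leaving out each library. On counts simulated for this comparison (14217 genes tested), edgeR recovered 65 of 100 genes set at 1.5-fold and 81 of 100 set at 2-fold, with 7 false calls. Levels between genes were also computed with GENCODE v29 exon unions as lengths, chosen after seeing the data. No library was a copy of another: between libraries of the same group, chi-square per gene was 7.76 or more. Positions are from GENCODE v29 (GRCh38) and promoters from RefSeq.

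The genes and the 9 lists of related genes and 4 lists of cell type markers were chosen with earlier results of these data known. Named genes were all 10 genes; in each list of related genes up to 3 called genes by size of change, or the 1 of lowest p where none was called; and the 2 most abundant of each marker list. Others are said to be named after their values were seen, or were given as defining markers and partners.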

Additional observations from a re-analysis of the deposited data

How the results depend on the processing

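THBS1, NRP1, VEGFC and THBS3 were called in the same direction under all 16 other settings, VEGFB and ANGPTL4 under none, and no gene changed direction. VEGFA lost its call in 4 settings, NRP2 in 9 and PGF in 10. Leaving out 1 library gave 2 to 3 of the 10 genes higher and 2 to 4 lower, 298 to 766 of all genes higher and 621 to 1106 lower, against 668 and 1002 with all libraries, 15 to 21 called genes in the 9 lists, against 21, and a log2 fold change of TFCP2L1 of 14.34 to 16.68. The lowest counts of all genes came without vector replicate 1 (298 higher) and vector replicate 3 (621 lower). Same-numbered libraries did not deviate together (correlations of 0.0721, -0.161 and -0.124), and the largest correlation was 0.22, between TFCP2L1 replicate 3 and vector replicate 2. With 3 libraries per group these values cannot tell whether libraries of the same number were prepared together. With the replicate number as a block 328 genes were higher and 649 lower, and of the 10 genes 2 were lower, with VEGFA, PGF and NRP2 at adjusted p = 0.0622, 0.143 and 0.122. THBS2, with 9 reads in all, and the receptor genes KDR and FLT4 had too few reads to be tested.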

Other observations

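In the 9 lists, 28 genes were not called and had fewer than 1000 reads in all. Of these, 3 had groups that did not overlap and more reads in TFCP2L1 cells, and 2 had such groups and fewer. Over all tested genes, called ones included, the groups did not overlap for 14.4% with higher and 15.6% with lower levels in TFCP2L1 cells. The 28 genes also include some that did not pass the filter on low counts, so the sets are not alike. The genes below were named after their values were seen. TEK, the receptor of the angiopoietins, had 24, 10 and 15 reads in TFCP2L1 libraries and 2, 2 and 6 in vector libraries and did not pass the filter on low counts. SEMA3E, a semaphorin that signals through PLXND1 without a neuropilin, had 72, 68 and 63 reads in TFCP2L1 libraries and 34, 43 and 48 in vector libraries, with a log2 fold change of 0.66 ± 0.31 (edgeR adjusted p = 0.193). ARNT2, a partner of hypoxia-inducible factors, had 52, 49 and 62 reads in TFCP2L1 libraries and 35, 43 and 35 in vector libraries (0.49 ± 0.33, edgeR adjusted p = 0.396). In the other direction, TIE1 had 100, 72 and 60 reads in TFCP2L1 libraries and 134, 154 and 102 in vector libraries. SEMA3G had 1, 0 and 1 reads in TFCP2L1 libraries and 1, 7 and 5 in vector libraries, apart only after scaling to library size, and was not tested.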
